A study of Mus musculus with 24 samples.

Results

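The 32 genes described here encode enzymes and regulators of sterol and fatty acid synthesis. They were taken by symbol, from a list of names with no threshold on measured values, among the 24062 genes of the count tables, and 32 of 32 were found. By role they comprise 7 genes of the mevalonate arm, 3 of the steps from squalene to lanosterol, 7 of the steps from lanosterol to cholesterol, 5 regulators, 3 genes of fatty acid synthesis and 7 genes of fatty acid desaturation and elongation.

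Cholesterol is built from acetyl-CoA by way of mevalonate, squalene and lanosterol, and fatty acids are built from the same acetyl-CoA by way of malonyl-CoA and are then desaturated and elongated. Both routes are controlled by the SREBP transcription factors, which are held in the endoplasmic reticulum by SCAP and the INSIG proteins when sterol is abundant and are cut and released to the nucleus when it is scarce. The brain makes nearly all of its own cholesterol, and oligodendrocytes use large amounts of newly made sterol and fatty acids for myelin during postnatal development.

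Mice with a Celf6 knockout (KO), whose targeted gene encodes an RNA-binding protein, were compared with wild-type (WT) mice at postnatal day 9. The tissue lay just behind the thalamus, with the cortex taken off. Total RNA of this tissue (input) was compared with RNA on the ribosomes of serotonin cells, obtained by translating ribosome affinity purification (TRAP) with a tagged-ribosome allele that is active in serotonin cells and was used in KO and WT alike. The groups were KO TRAP (n = 5), WT TRAP (n = 5), KO input (n = 5) and WT input (n = 3 after the step given below). The labels name neither the promoter of the allele, the part of Celf6 that was deleted nor the sex of the animals, and the strain field holds only a placeholder. They speak of 5 brains of each genotype but do not tie libraries to animals beyond the replicate number, so p-values measure the spread between these libraries.

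The 19 libraries used held 3390423 to 6861963 counts. The libraries labelled WT input 2 and 3 differed by less than the sampling noise of resequencing: their chi-square per gene was 1.34, that of 4 libraries sequenced again was 1.37 to 2.58, and that of the remaining 35 pairs of a group was 24.7 to 90.3. They were summed and counted as 1 sample, WT input 2/3. Celf6 read 115, 21.4, 56.5, 26.9 and 36.3 CPM (counts scaled to library size) in KO TRAP 1 to 5 and 85.2 to 188 CPM in WT TRAP, and 4.79 to 22 CPM in KO input against 33.1, 15.4 and 104 CPM in WT input. The library labelled KO TRAP 1 thus lay within the range of WT TRAP, and KO and WT input overlapped. Serotonin cell markers stood far higher in TRAP: Tph2 read 706 to 2590 CPM in TRAP and 17 to 57.9 CPM in input. All 8 serotonergic markers were higher (median log2 fold change 4.96), 6 of 12 oligodendrocyte markers (median −1.19) and 4 of 9 astrocyte markers (median −1.23) were lower, and 0 of 6 pan-neuronal markers passed (median 0.20; edgeR, adjusted p under 0.05).

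Promoter sequence is shown for 3 of the genes because the SREBP factors act through short motifs near the start site. RefSeq windows (GRCm38.p6, the build of mm10; 250 bases before to 50 after the start) were matched for 26 of the 32 genes, the exceptions being Scd1, Scd2, Fdft1, Sqle, Fdps and Fads1. The sterol regulatory element was searched as TCACNCCAC, the E-box as CACGTG, the CCAAT box as CCAAT and the GC box as GGGCGG, each on both strands and with overlaps allowed. The sterol regulatory element was present in 1 of 26 genes (3.85%, against 1.44% of 27025 genes with a window), the E-box in 6 (23.1%, against 8.09%), the CCAAT box in 21 (80.8%, against 41.1%) and the GC box in 21 (80.8%, against 38.2%). The 27025 genes were not limited to those expressed here, and a gene counted if any of its windows held the motif. The gene with the sterol regulatory element was Hmgcs1, which also held CCAAT and GC boxes. Lss and Insig1 are the sterol genes with the smallest unadjusted p in TRAP against input. Lss held CCAAT and GC boxes, and Insig1 held these and an E-box 101 bases before its start. A match describes the letters and does not show a bound site, and no match shows only that these letters are absent from the window. The stretches below are the 250 bases before each start, 5′ to 3′ on the gene's strand, with every match in capitals.
Hmgcs1, chr13:119690101-119690350, plus strand: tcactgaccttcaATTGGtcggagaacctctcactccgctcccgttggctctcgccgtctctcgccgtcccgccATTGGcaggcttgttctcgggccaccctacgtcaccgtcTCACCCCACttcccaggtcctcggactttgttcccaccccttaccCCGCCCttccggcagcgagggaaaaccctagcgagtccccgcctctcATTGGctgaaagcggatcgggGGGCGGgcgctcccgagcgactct
Lss, chr10:76531355-76531604, plus strand: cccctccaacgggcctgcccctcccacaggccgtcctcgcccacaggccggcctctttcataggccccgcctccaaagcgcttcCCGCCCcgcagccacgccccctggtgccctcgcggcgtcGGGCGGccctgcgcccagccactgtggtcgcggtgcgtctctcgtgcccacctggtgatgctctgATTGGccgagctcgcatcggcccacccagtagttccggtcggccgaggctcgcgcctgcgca
Insig1, chr5:28071162-28071411, plus strand: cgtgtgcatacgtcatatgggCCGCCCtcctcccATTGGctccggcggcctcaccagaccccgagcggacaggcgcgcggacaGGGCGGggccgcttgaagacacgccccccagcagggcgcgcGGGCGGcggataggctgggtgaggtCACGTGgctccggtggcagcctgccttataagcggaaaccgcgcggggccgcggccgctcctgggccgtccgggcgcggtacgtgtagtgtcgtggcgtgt

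Levels between genes were compared in reads per kilobase of exon, scaled to library size (RPKM). In TRAP the highest medians were those of Scd2 (89.9 RPKM), Hmgcs1 (89.2) and Pmvk (83.7), and in input those of Hmgcs1 (136 RPKM), Scd2 (133) and Sqle (59.5). Idi1 had the lowest median in both kinds of RNA, 0.538 RPKM in TRAP and 0.703 in input. Acaca, which encodes the carboxylase that makes malonyl-CoA, stood low as well (4.11 and 2.30 RPKM). The pathway was thus read at very unequal levels from step to step in both kinds of RNA.

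In TRAP against input, none of the 32 genes passed the threshold of an adjusted p under 0.05 (edgeR quasi-likelihood test, 10 TRAP and 8 input libraries), while 673 of 14261 genes did (4.72%; 2.41% higher and 2.31% lower). With DESeq2, 2 of the 32 genes passed, Scd1 and Scd2, while 1315 of 14416 genes did. The edgeR count over all genes ran from 346 to 831 when 1 library was left out. It was 363 without WT input 1, 525 without WT input 2/3 and 346 without WT input 5. In 13 genes the estimate was above 0 and in 19 below, with a median log2 fold change of −0.20 (all genes 0.02) and a range of −0.99 to 0.73. An unadjusted p under 0.05 was found for 6 of 32 genes (18.8%), a share close to the 19.0% of all genes. In 14 genes the 95% interval lay inside −1 to 1, so a change of more than 2-fold in either direction was outside it. The libraries of the 2 kinds overlapped in 32 of 32 genes, where 0.757% of all genes tested had none. In tissue RNA and in TRAP, fewer cells of a type and less RNA per cell cannot be told apart.

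**Figure D1:**
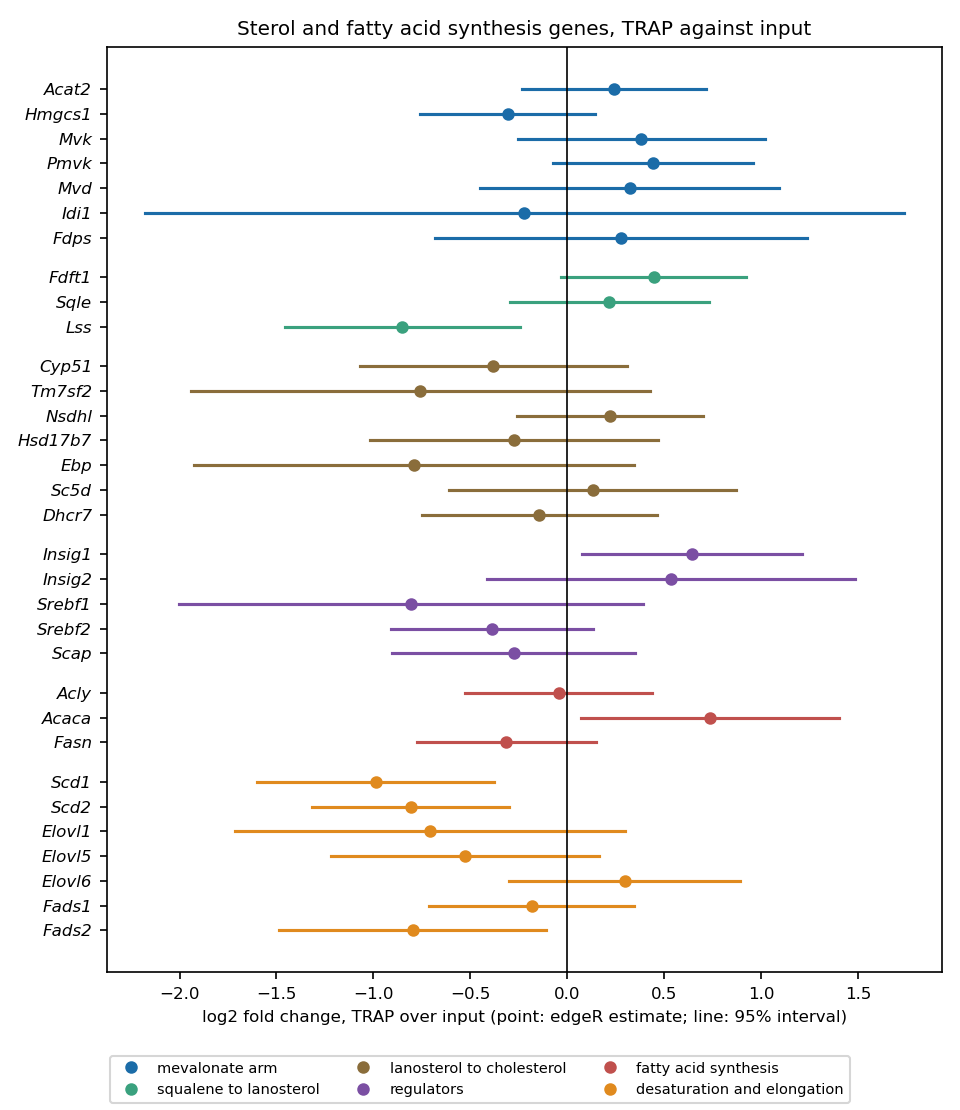
Log2 fold change of TRAP over input for the 32 genes (x axis), grouped and coloured by role (y axis). Points are edgeR estimates and lines are 95% intervals. Most intervals cross 0, and those of Scd1, Scd2, Fads2 and Lss lie below it and those of Insig1 and Acaca above it before adjustment.

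The genes of desaturation and elongation leaned most to the input side, with 6 of 7 estimates below 0 (median −0.71) and none called. Scd1 and Scd2 encode stearoyl-CoA desaturases, which put the first double bond into saturated fatty acids. Scd1 (chr19:44394450-44407709, mm10) ranged from 2.49 to 15.5 RPKM in TRAP, with a median of 8.70, and from 9.80 to 24.8 in input, with a median of 17.5. All 10 TRAP libraries lay below the input median, and 5 of the 10 lay below every input library. The log2 fold change was −0.99 ± 0.30 (SE; 95% interval −1.60 to −0.38), and the edgeR adjusted p was 0.0536. It passed without KO TRAP 3, WT TRAP 4 or KO input 4 (edgeR adjusted p = 0.0291, 0.0308 and 0.0288). These were 3 of 18 fits with 1 library left out, over which the edgeR adjusted p reached 0.142. WT TRAP 4 and KO TRAP 3 held the highest TRAP values of Scd1 and KO input 4 its lowest input value. Leaving out any of them had to lower the estimate. Scd2 (chr19:44293676-44306862), which overlaps Mir5114 on the same strand, ranged from 43.8 to 125 RPKM in TRAP, with a median of 89.9, and from 59.7 to 227 in input, with a median of 133. Again all 10 TRAP libraries lay below the input median, but only 3 lay below every input library. Its log2 fold change was −0.81 ± 0.25 (interval −1.31 to −0.30; edgeR adjusted p = 0.0581). It passed without KO TRAP 3, WT TRAP 1 or KO input 2 (edgeR adjusted p = 0.0413, 0.0224 and 0.0206). These were again 3 of 18 fits with 1 library left out, over which the edgeR adjusted p reached 0.233. WT TRAP 1 held the highest TRAP value of Scd2 and KO input 2 its lowest input value. Leaving out either had to lower the estimate.

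Fads2, the delta-6 desaturase gene of polyunsaturated fatty acid synthesis, is named here after its values were seen. It ranged from 10.4 to 40.0 RPKM in TRAP (median 23.3) and from 20.2 to 128 in input (median 33.4), and KO input 5 held the highest value by far. Its log2 fold change was −0.80 ± 0.33 (interval −1.49 to −0.11; unadjusted p = 0.0245, edgeR adjusted p = 0.183). Elovl1 and Elovl5, which encode fatty acid elongases, had estimates of −0.71 and −0.53 with intervals that span 0, and Fads1, the delta-5 desaturase gene, had −0.18. Elovl6, the elongase gene for palmitate, was the only member of the role above 0 (0.30, interval −0.30 to 0.89).

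Between squalene and lanosterol the 3 genes did not lean one way (median 0.22). Lss (chr10:76531627-76553934), which encodes the cyclase that makes lanosterol, ranged from 9.56 to 50.7 RPKM in TRAP, with a median of 13.2, and from 16.8 to 51.7 in input, with a median of 26.7. In TRAP 9 of 10 libraries lay below the input median; the exception was the library labelled KO TRAP 1, at 50.7 RPKM. The log2 fold change was −0.85 ± 0.30 (interval −1.46 to −0.24; edgeR adjusted p = 0.0967), and it passed without that library (−1.13, edgeR adjusted p = 0.0128). That was 1 of 18 fits with 1 library left out, over which the edgeR adjusted p reached 0.319. The library held the highest TRAP value of Lss, so leaving it out had to lower the estimate. Exons of Lss overlap 4930483K19Rik on the other strand, and reads were counted without strand, so its value is uncertain. Fdft1, the squalene synthase gene, read 31.5 to 70.7 RPKM in TRAP (median 49.8) and 21.1 to 72.5 in input (median 36.4), with a log2 fold change of 0.45 ± 0.23 (interval −0.03 to 0.92). It overlaps Ctsb on the other strand. Sqle, the squalene epoxidase gene and the highest of the role, read 28.5 to 108 RPKM in TRAP (median 64.2) and 23.4 to 104 in input (median 59.5), and its interval was −0.29 to 0.73.

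In the mevalonate arm 5 of 7 estimates lay above 0 (median 0.28). Hmgcs1, which encodes the synthase that makes HMG-CoA, read 62.3 to 164 RPKM in TRAP (median 89.2) and 63.4 to 160 in input (median 136). Its log2 fold change of −0.31 ± 0.22 had the narrowest interval of the 32 genes, −0.76 to 0.14. Pmvk, the phosphomevalonate kinase gene, read 38.4 to 96.6 RPKM in TRAP (median 83.7) and 35.5 to 84.4 in input (median 50.6). In TRAP 8 of 10 libraries lay above the input median, and the log2 fold change was 0.44 ± 0.25 (interval −0.08 to 0.96). Acat2, whose enzyme joins acetyl-CoA units, had an estimate of 0.24. Mvk and Mvd, the mevalonate kinase and diphosphomevalonate decarboxylase genes, had 0.38 and 0.32, and Fdps, the farnesyl diphosphate synthase gene, had 0.28, all with intervals that span 0. Idi1, the isomerase gene, had 2 to 35 counts in a library and an interval of −2.18 to 1.74, so changes within that range were compatible with these counts. The reason for its low counts was not tested.

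From lanosterol to cholesterol 5 of 7 estimates lay below 0 (median −0.28), and every interval spans 0. Ebp, the sterol isomerase gene, varied from 0.273 to 16.7 RPKM within TRAP (median 5.82) and from 2.26 to 17 within input (median 8.19), with a log2 fold change of −0.79 ± 0.55. Tm7sf2, the sterol C14-reductase gene, varied from 1.62 to 28.3 RPKM in TRAP (median 6.26) and from 3.76 to 31.3 in input (median 11.1), with a log2 fold change of −0.76 ± 0.58 (interval −1.94 to 0.42). Tm7sf2 shares exonic bases with Vps51. Nsdhl, the dehydrogenase gene of sterol demethylation and the highest of the role, read 29.0 to 94.4 RPKM in TRAP (median 52.7) and 27.9 to 91.9 in input (median 44.6), with an interval of −0.26 to 0.70. The other 4 were Cyp51, the lanosterol demethylase gene (−0.38), Hsd17b7, a sterol ketoreductase gene (−0.28), Sc5d, a sterol desaturase gene (0.13), and Dhcr7, the gene of the last reductase on one route to cholesterol (−0.14).

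Among the 5 regulators, estimates lay above 0 for Insig1 and Insig2 and below 0 for Srebf1, Srebf2 and Scap, and that of Srebf1 was 0.28 without WT input 1. Insig1 (chr5:28071412-28078662), whose protein retains SCAP in the endoplasmic reticulum and which is itself a target of SREBP, read 27.2, 29.7, 58.1, 25.5 and 24.5 RPKM in KO TRAP 1 to 5 and 27.0, 20.1, 21.5, 47.4 and 48.7 in WT TRAP 1 to 5. In input it read 11.7 to 28.5 RPKM with a median of 20.9. The log2 fold change was 0.64 ± 0.28 (interval 0.08 to 1.21; unadjusted p = 0.0279, edgeR adjusted p = 0.196). The 3 high TRAP libraries, KO TRAP 3, WT TRAP 4 and WT TRAP 5, were also the 3 with the most oligodendrocyte marker RNA, 6090 to 7410 summed CPM over 12 genes against 1540 to 3480 in the other 7 and 6030 to 14900 in input. With those 3 libraries left out the log2 fold change of Insig1 was 0.21 (edgeR adjusted p = 0.755) and that of Scd1 was −1.33 (edgeR adjusted p = 0.0164, which passes). Scd2 stood at −0.76 and Elovl1 at −1.38 there (edgeR adjusted p = 0.11 and 0.143). This alternative was added after the data were seen. Insig1 and Elovl1 had their 3 highest TRAP values in these libraries, so leaving those libraries out had to lower both estimates. Scd1 read 10.1 to 15.5 RPKM in the 3 libraries, its highest TRAP value among them, against 2.49 to 11.3 in the other 7. Its lower estimate without them is thus no separate support. Elovl1 was likewise high in the 3 libraries, at 11.5 to 32.3 RPKM against 1.35 to 8.81 in the other 7. Its exons overlap Cdc20 on the other strand, so its value is uncertain. The part of oligodendrocyte RNA in these values was not tested. Srebf2, the main SREBP gene for sterol synthesis, read 11.9 to 35.3 RPKM in TRAP (median 24.5) and 16.2 to 67.4 in input (median 28.5), with an interval of −0.91 to 0.13. Srebf1, Scap and Insig2 had estimates of −0.81, −0.28 and 0.54 with intervals that span 0.

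**Figure D2:**
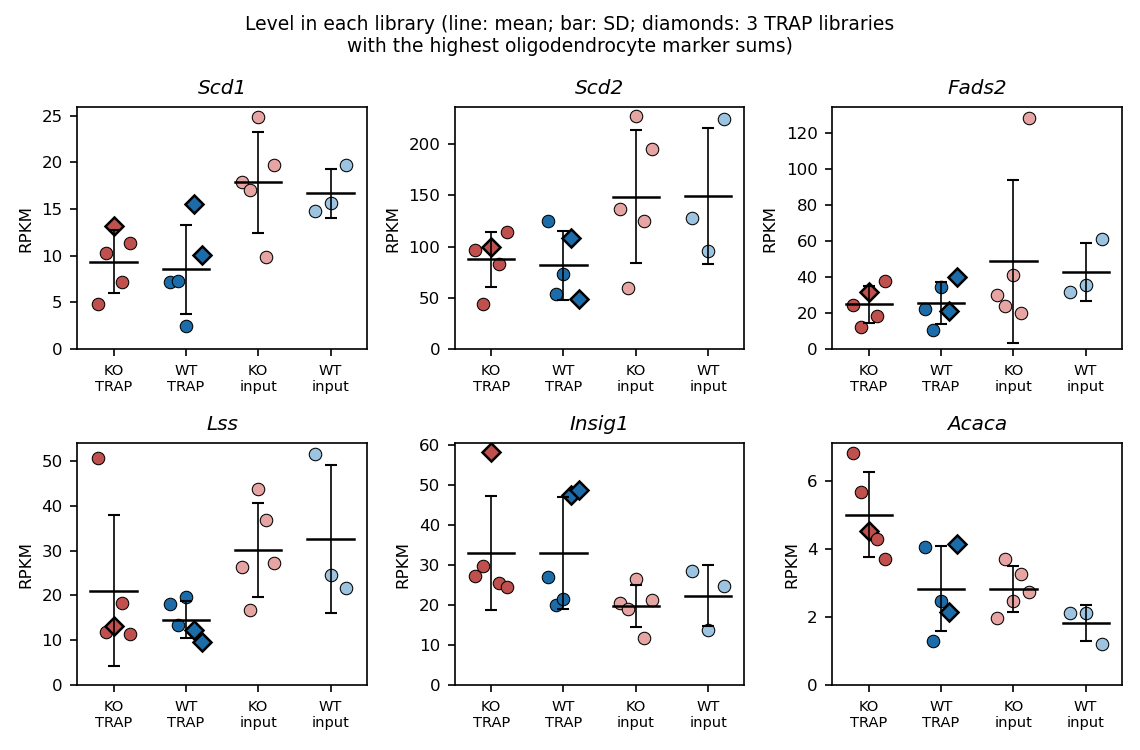
Level in RPKM (y axis, from 0) of 6 genes in each library of the 4 groups (x axis), with group means as lines and SD as bars. Diamonds mark the 3 TRAP libraries with the highest oligodendrocyte marker sums: they hold the 3 highest values of Insig1, while Scd1 and Scd2 sit lower in most TRAP than input libraries.

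The 3 genes of fatty acid synthesis diverged (median −0.04). Acaca (chr11:84195438-84401651) read 1.29 to 6.83 RPKM in TRAP, with a median of 4.11, and 1.2 to 3.71 in input, with a median of 2.30. In TRAP 6 of 10 libraries lay above every input library, and the log2 fold change was 0.73 ± 0.32 (interval 0.07 to 1.4; unadjusted p = 0.0318, edgeR adjusted p = 0.210). Fasn, the fatty acid synthase gene, read 19.7 to 45.1 RPKM in TRAP (median 30.1) and 21.1 to 60.7 in input (median 35.8), with an interval of −0.78 to 0.15. Acly, whose enzyme releases acetyl-CoA from citrate, had nearly equal medians, 47.4 RPKM in TRAP and 47.2 in input, and an interval of −0.53 to 0.44.

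Replicates 1 to 3 came from run 1 and replicates 4 and 5 from run 2, and the difference of TRAP from input in mean log2 CPM had the same sign in both runs in 16 of 32 genes. It was −1.37 in run 1 and −0.64 in run 2 for Scd1, −0.60 and −1.15 for Scd2, −0.64 and −1.01 for Fads2, and −0.75 and −1.05 for Lss. It was 0.46 and 0.81 for Insig1 and 0.61 and 0.85 for Acaca. These are the 6 genes with an unadjusted p under 0.05 over both runs together, so their equal signs are no separate support.

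Within each genotype, none of the 32 genes passed in KO (1.24% of all genes did) or in WT (0.666%; edgeR), and 26 of 32 had the same sign in both. The log2 fold change of TRAP over input was −0.95 ± 0.39 in KO and −1.03 ± 0.45 in WT for Scd1, and −0.77 ± 0.33 and −0.84 ± 0.37 for Scd2. For Lss it was −0.58 ± 0.39 and −1.12 ± 0.44. These pairs of values differed by less than their standard errors for the desaturase genes.

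Genes beside the pathway gave a few calls. Over all genes tested 4.72% passed with edgeR, 2.41% higher and 2.31% lower. Whether these short lists hold more calls than that share was not tested. Of 17 genes of cholesterol uptake, transport and turnover, 1 was lower in TRAP than in input: Apoe, the lipid carrier made mostly by astrocytes in the brain, by 2.28 ± 0.37 on the log2 scale (edgeR, adjusted p = 0.000258). Of 21 genes of fatty acid supply and activation, Slc25a1, which exports citrate from mitochondria, was higher (0.81 ± 0.21, edgeR adjusted p = 0.0255) and Acsl6, an acyl-CoA synthetase gene, was lower (−1.28 ± 0.33, edgeR adjusted p = 0.0205). Of 13 genes of fatty acid binding and oxidation, Fabp7, a fatty acid binding protein gene of radial glia and astrocytes, was lower (−2.12 ± 0.27, edgeR adjusted p = 1.13e-05), as was Ppargc1a, a coactivator gene of oxidative metabolism (−1.19 ± 0.31, edgeR adjusted p = 0.0257). Apoe and Fabp7 kept their calls under 31 of 31 alternatives, whereas Slc25a1 lost its call under 9, and Acsl6 and Ppargc1a under 7 each. Slc25a1 lost it without WT TRAP 2 (edgeR adjusted p = 0.0589), WT input 1 (0.0724), WT input 2/3 (0.0608) or WT input 5 (0.0815). Acsl6 lost it without WT input 1 (edgeR adjusted p = 0.139). Ppargc1a lost it without WT TRAP 3 (edgeR adjusted p = 0.0565), WT input 2/3 (0.052) or WT input 5 (0.0986). Summed astrocyte markers read 251 to 1050 CPM in TRAP and 951 to 1700 in input, and their part in these values was not tested.

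**Figure D3:**
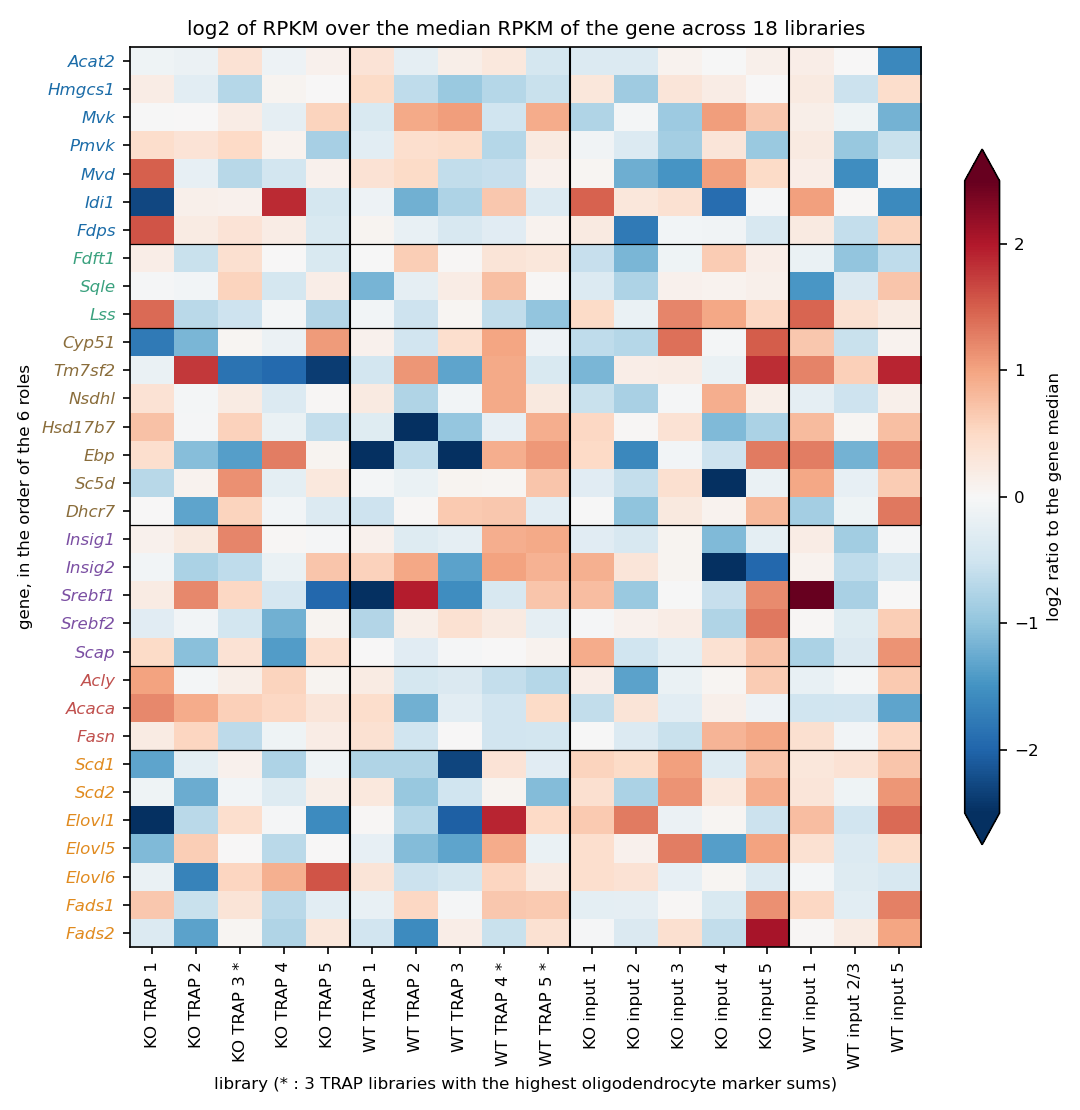
Log2 of the RPKM of each gene (rows, coloured and ordered by role) over its own median across the 18 libraries (columns, in 4 groups set apart by lines), from blue (lower) to red (higher). No group forms a block of one colour for a whole role, and single libraries such as WT input 1 for Srebf1 stand out.

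Between KO and WT in TRAP, 0 of 31 genes tested were called, as were 0 of 12204 genes in all (0%; edgeR, lowest adjusted p 0.9992), and 1 of the 31 against 455 of all had an unadjusted p under 0.05. Celf6, the targeted gene, was thus not called by edgeR either, so a lack of calls does not show that the 31 genes are unchanged. DESeq2 called 11 genes, none of them among the 31. Idi1 was too low to be tested here. Estimates were above 0 in 17 genes and below in 14, with a median of 0.07 (all genes 0.02), and 11 of 31 intervals lay inside −1 to 1. In 0 of 31 genes were KO and WT libraries without overlap (0.721% of all genes were). All 3 fatty acid synthesis genes had estimates above 0 (median 0.74).

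Acly had the smallest p. It read 94.4, 45.7, 52.0, 69.1 and 49.2 RPKM in KO TRAP 1 to 5 and 54.4, 34.7, 36.7, 31.3 and 28.9 in WT TRAP 1 to 5. All 5 KO libraries lay above the WT median and 2 lay above every WT library. Its log2 fold change was 0.74 ± 0.28 (interval 0.16 to 1.32; unadjusted p = 0.0149, edgeR adjusted p = 0.9992), with a difference in mean log2 CPM of 0.56 in run 1 and 0.95 in run 2. The highest value was in the library labelled KO TRAP 1, and over the 10 alternatives that leave out 1 library the log2 fold change ran from 0.56 to 0.89. Acaca read 6.83, 5.66, 4.53, 4.29 and 3.69 RPKM in KO TRAP and 4.07, 1.29, 2.47, 2.14 and 4.15 in WT TRAP, so that 4 KO libraries lay above every WT library. Its log2 fold change was 0.80 ± 0.43 (interval −0.11 to 1.71; edgeR adjusted p = 0.9992). Insig2, which encodes the second protein that retains SCAP, read 9.30, 5.58, 6.24, 8.61 and 15.7 RPKM in KO and 14.4, 18.9, 3.84, 19.4 and 17.6 in WT. All 5 KO libraries lay below the WT median, but WT TRAP 3 was the lowest of the 10. The log2 fold change was −0.74 ± 0.45 (interval −1.68 to 0.21; edgeR adjusted p = 0.9992).

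In input, 0 of 32 genes were called between KO and WT, as were 0 of 13036 in all (0%; edgeR), and 0 of the 32 against 376 of all had an unadjusted p under 0.05. With edgeR Celf6 was again not called. DESeq2 called 4 genes, none of them among the 32. The median was 0.02, as over all genes, 12 intervals lay inside −1 to 1, and 0 of 32 genes had groups without overlap (2.24% of all genes had). The smallest p was that of Hsd17b7, which encodes a ketoreductase of sterol demethylation. It read 19.3, 13.6, 17.2, 6.23 and 7.77 RPKM in KO input 1 to 5 and 23.2, 13.9 and 22.7 in WT input 1, 2/3 and 5. All 5 KO libraries lay below the WT median, and the log2 fold change was −0.74 ± 0.39 (interval −1.56 to 0.08; edgeR adjusted p = 0.9996). It was −0.15 without WT input 5, and KO minus WT in mean log2 CPM came to −0.12 within run 1 and −1.70 within run 2. WT input 5 is the only WT input library of run 2. Srebf1, the SREBP gene tied to fatty acid synthesis, read 4.51, 1.39, 2.63, 1.78 and 6.01 RPKM in KO input and 27.1, 1.5 and 2.66 in WT input. Its log2 fold change of −1.54 ± 0.89 rested on WT input 1, and it was 0.74 without that library. Srebf1 overlaps Rai1 on the other strand. Tm7sf2 read 3.76, 9.35, 9.51, 7.44 and 30.2 RPKM in KO input and 19.6, 12.6 and 31.3 in WT input, with a log2 fold change of −0.97 ± 0.58 (interval −2.20 to 0.26; edgeR adjusted p = 0.9996).

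**Figure D4:**
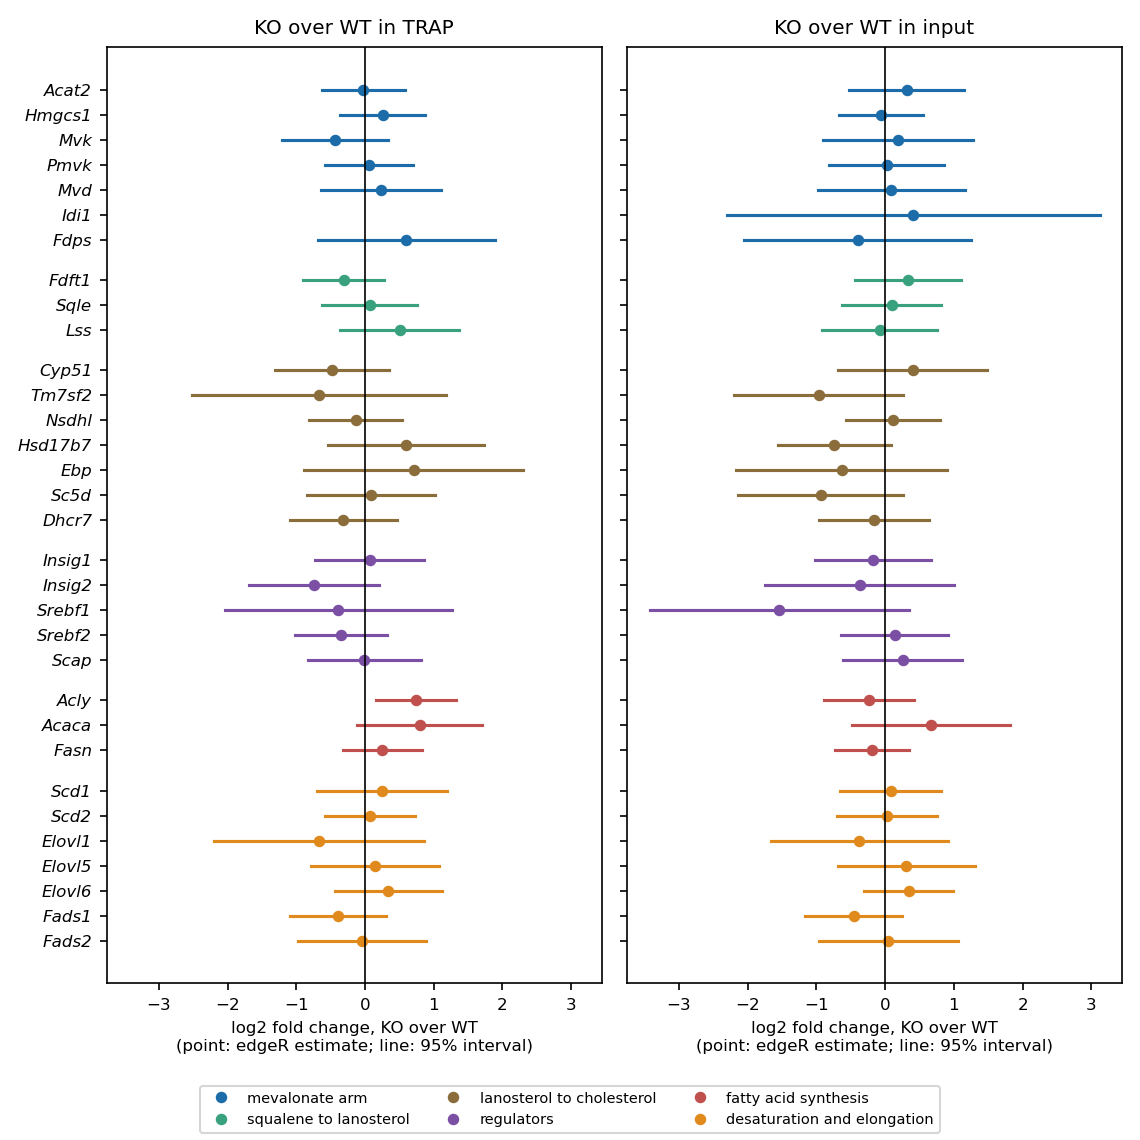
Log2 fold change of KO over WT in TRAP (left) and in input (right) for the 32 genes (y axis, by role), on 1 shared x axis. Points are edgeR estimates and lines 95% intervals; Idi1 was not tested in TRAP, and apart from Acly in TRAP every interval crosses 0.

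The difference between the KO effect in TRAP and that in input was called in 0 of 32 genes and 0 of 14261 in all (0%; edgeR, with 554 of all at an unadjusted p under 0.05). DESeq2 called 6 genes, none of them among the 32. It was 0.93 ± 0.46 for Acly (interval −0.02 to 1.88; unadjusted p = 0.0540), −0.71 ± 0.47 for Fdft1 (interval −1.67 to 0.25) and 1.07 ± 0.71 for Hsd17b7 (interval −0.40 to 2.54), each with an edgeR adjusted p of 1. No interval of the 32 lay inside −1 to 1, so this comparison leaves room for differences of more than 2-fold.

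In the authors' deposited table of each event class, these genes had 17 entries for splicing and 4 for tandem UTRs, scored as percent spliced in (PSI, a fraction from 0 to 1). Only a retained intron of Fasn and a tandem UTR of Fdft1 had values in at least 3 libraries of each genotype. None was called (limma on the log2 odds of PSI; 0% of 1861 splicing events and 0.294% of 340 tandem UTR events in TRAP, and 0% of 242 tandem UTR events in input). The Fasn event had a PSI of 0.0338 ± 0.0255 (SD, n = 3) in KO TRAP and 0.0410 ± 0.0149 (n = 5) in WT TRAP, with overlapping values (limma, adjusted p = 0.909). The tables do not define which form a PSI of 1 stands for in retained introns. The Fdft1 event had 0.0193 ± 0.0190 (n = 5) and 0.0211 ± 0.0125 (n = 5) in TRAP, and 0.0342 ± 0.0271 (n = 5) and 0.0276 ± 0.0231 (n = 3) in input. A PSI near 0 in the groups means that 1 of the forms made up nearly all reads. Of the 4 tandem UTR events, 3 have coordinates outside the span of their gene in the mm10 count tables, Fdft1 among them, so they are taken by gene name and no position is given. In the authors' deposited table, 4 of the 16 genes with an event are marked as bound by CELF6 in crosslinking and immunoprecipitation (25%, against 25.1% of 4738 genes): Elovl6 in coding sequence, Fasn in an intron, and Scap and Sqle in the 3′ UTR.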

How the data were processed

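Counts per gene were deposited by the authors, 1 file per library, made with featureCounts 1.4.6-p5 (exons summed per gene, without strand, mm10) per the file headers. Reads were trimmed with Trimmomatic and aligned with STAR per the submitters' processing notes, and cDNA was amplified with the Nugen Ovation 2 kit per the labels. PSI values are fractions in the tables the authors deposited, from MISO, limited to values with a credible interval no wider than 0.20, per the series' design text. CELF6 binding marks are other entries of those tables.

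The genes and lists were chosen with earlier results of these data known. Left out were 4 repeat runs and WT input 4 (325072 counts; an outlier by its label). WT input 2 and 3 were summed. Of the 24 libraries 19 entered the tests, as 18 samples: edgeR 4.0.16 in R 4.3.3 (filterByExpr, TMM, quasi-likelihood F test, run as covariate, Benjamini and Hochberg adjustment over all genes tested, threshold 0.05), with DESeq2 1.42.0 and other settings as alternatives. TRAP against input averages the KO and the WT difference with equal weight. CPM and RPKM are counts per 1000000 of TMM-scaled library size, RPKM also per kilobase of summed exons. PSI was held between 0.01 and 0.99 and tested with limma 3.58.1.

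Given in full were, per role, the 2 genes with the smallest p and the 1 with the highest mean RPKM in TRAP against input, the 3 with the smallest p in each other comparison, and list genes past the threshold. The replicate number served as a block in alternatives only. A list of further sterol genes is not reported here.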

Additional observations from a re-analysis of the deposited data

Results flagged for a closer look

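In groups of 5 libraries, 6 of 96 pairs of a gene and a group held 1 library whose gap to the nearest other, on the log2 scale, exceeded 0.710 of the range; chance gives about 1 in 20. They fell in 6 different libraries. Hmgcs1 read 164 RPKM in WT TRAP 1 (62.3 to 80.2 in the other WT TRAP libraries) and 63.4 in KO input 2 (118 to 146 in the others). Insig1 read 58.1 RPKM in KO TRAP 3 (24.5 to 29.7 in the others), 1 of the 3 TRAP libraries with the most oligodendrocyte marker RNA. Insig2 read 3.84 RPKM in WT TRAP 3 (14.4 to 19.4 in the others). Sc5d, which encodes a sterol desaturase, read 20.3 RPKM in WT TRAP 5 (11.2 to 13.1 in the others), and Fads1 read 78.2 in KO input 5 (27.1 to 36.2 in the others).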

How the results depend on the processing

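For TRAP against input, 0 of the 32 genes passed in the chosen fit, 2 with DESeq2, 1 with RLE factors, 2 with upper-quartile factors, 3 with no expression filter, 1 with a mean of at least 5 CPM, 1 with the replicate block, 1 with WT input 2 and 3 kept apart and 1 without the 3 TRAP libraries of highest oligodendrocyte sums, an alternative chosen after seeing the data. It was 0 to 2 when 1 library was left out. Scd1 passed under 10 of 31 alternatives (without KO TRAP 3, WT TRAP 4 or KO input 4 among them), Scd2 under 8 (without KO TRAP 3, WT TRAP 1 or KO input 2 among them) and Lss under 2. In run 2 alone WT input 5 was the only WT input library. The log2 fold change there was −2.38 for Tm7sf2, 2.06 for Insig2, −0.93 for Fasn and 1.09 for Elovl6. Outside that fit none of the 32 genes other than Scd1, Scd2 and Lss passed under any alternative. Over all genes the 673 calls became 1315 of 14416 with DESeq2, 1065 of 19897 with no filter, 413 of 14261 with the replicate block, 233 in run 1 alone, 160 in WT alone and 124 in KO alone, and 346 to 831 when 1 library was left out (363 without WT input 1, 346 without WT input 5). They were 666 of 14261 with RLE factors, 648 of 14261 with upper-quartile factors and 676 of 11357 with a mean of at least 5 CPM. With WT input 2 and 3 kept apart 955 of 13900 were called, and 663 of 13967 without the 3 TRAP libraries. Between KO and WT the 0 calls over all genes became 11 in TRAP, 4 in input and 6 for the interaction with DESeq2; 16, 4 and 3 with no filter; 264, 89 and 29 in run 2 alone; and in input 1 with the replicate block and 0 to 1 when 1 library was left out (1 without KO input 3). None of these calls was 1 of the 32 genes. The cause was not tested.

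Some signs of TRAP against input turned. In run 2 alone the log2 fold change was −0.54 for Mvd, 1.80 for Idi1, −0.23 for Fdps, −0.23 for Sqle, 0.04 for Cyp51, −0.11 for Nsdhl and 0.14 for Hsd17b7. In run 1 alone it was −0.04 for Sc5d, 0.32 for Dhcr7, −0.18 for Insig2, 0.16 for Scap, 0.34 for Acly, 0.10 for Fasn, −0.20 for Elovl6 and 0.15 for Fads1. In WT alone it was −0.27 for Fdps, 0.06 for Cyp51 and −0.44 for Sc5d, and in KO alone 0.31 for Hsd17b7 and 0.43 for Acly. Acly stood at 0.01 with the replicate block and 0.14 without the 3 TRAP libraries, where Sc5d stood at −0.17. Leaving out 1 library gave −0.59 to 0.11 for Idi1, −0.07 to 0.26 for Sc5d (−0.01 without WT input 2/3), −0.33 to 0.15 for Dhcr7, −1.24 to 0.28 for Srebf1, −0.44 to 0.05 for Scap and −0.17 to 0.08 for Acly. Srebf1 between KO and WT in input was 0.56 in run 2 alone and −2.33 to 0.74 when 1 library was left out. With PSI held between 0.05 and 0.95, the log2 odds difference in TRAP was 0.08 for Fasn and 0.0028 for Fdft1. Most values of both events lay under 0.05, so this floor made them equal and the sign carries no weight. When 1 library was left out it was −0.57 to 0.09 for Fdft1 in TRAP and −0.57 to 1.07 in input. The replicate block was not run for PSI in input, and it gave −0.65 for Fasn and −0.18 for Fdft1 in TRAP. With the block Scd2 passed (−0.86, edgeR adjusted p = 0.0359), and no other call among the 32 genes changed, while Slc25a1, Acsl6 and Ppargc1a lost theirs (edgeR adjusted p = 0.0773, 0.0822 and 0.0633). Deviations of same-numbered TRAP and input libraries from the group means correlated by −0.034 to 0.064 over 8 pairs, and 2 of 8 were closest to their own number. Summed ependymal and choroid plexus markers read 135, 110, 11.1, 285 and 21.1 CPM in KO TRAP 1 to 5. In KO input 1 to 5 they read 1760, 634, 16.8, 2360 and 17.3 CPM. They read 1440, 138 and 320 CPM in WT TRAP 1, 2 and 5. In WT input 1, 2/3 and 5 they read 3990, 396 and 3470 CPM. A correlation over many genes cannot settle whether same-numbered libraries share a brain, which was not tested. Low counts limit Idi1 most, and 3 WT input libraries limit every comparison within input.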

Other observations

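The genes differed in how much they varied between libraries of 1 group. The SD within groups, on the log2 CPM scale over 18 libraries, was 0.443 for Acat2, 0.467 for Fdft1, 0.480 for Hmgcs1 and 0.486 for Acaca, and 1.48 for Ebp, 1.46 for Srebf1, 1.19 for Tm7sf2, 1.11 for Elovl1 and 1.09 for Insig2. The median over the 32 genes was 0.673, against 0.875 over all 14261 genes tested and 0.626 over the 4141 genes with a similar mean level. Summed over the 32 genes, TRAP libraries held 2730 to 3890 CPM (median 3290) and input libraries 2370 to 5170 CPM (median 3920).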
